A study of Mus musculus with 2 samples.

Results

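The GIMAP genes (Gimap1, Gimap3, Gimap4, Gimap5, Gimap6, Gimap7, Gimap8 and Gimap9) encode GTPases of the immunity-associated proteins and were followed in thymus RNA of mice carrying a Pla2g10 transgene. All probes whose gene name on the array was one of these 8 symbols were taken, and no further probe was listed under an older Ian or Imap symbol. This gave 10 probes for 7 of the 8 genes, out of 41174 probes, and no probe for Gimap8. Of the 10 probes, 5 were measured, meaning that they were well above background, as the scanner software defines it, in the channels of at least 1 genotype on both arrays. These 5 stood for 4 genes, Gimap1, Gimap5, Gimap6 and Gimap9, among 9397 measured genes in all. That total also counts measured probes without a RefSeq gene, under their name in the array design.

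GIMAP proteins share a GTP-binding domain, and many are anchored in membranes of the endoplasmic reticulum, lysosome or mitochondrion. They are made mainly in lymphocytes, and loss of single members shortens the life of mature T cells in mice and rats. In mouse thymus several of them are switched on as thymocytes pass selection, so that mature single-positive cells carry more of their transcripts than double-positive cells.

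The transgenic group was Pla2g10-Tg/+ mice, which overexpress group X secreted phospholipase A2 according to the labels, and the control group was their littermates. Both groups had a C57BL/6 background, a standard diet and an age of 6 months. RNA from 4 thymi was pooled for each genotype, and the labels name neither the promoter of the transgene nor the sex of the mice. Both pools were hybridised together on 2 two-colour arrays. The transgenic pool was red (Cy5) on array 1 and green (Cy3) on array 2, and the labels do not say whether both arrays hold the same pools. They were taken as a dye swap of 1 pool per genotype, and on that assumption the SD between them is technical. The differences were not checked in further animals, and no test was made. In pooled tissue RNA, fewer cells of a type and less RNA per cell cannot be told apart.

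The only probe for Pla2g10 was well above background in 0 of 4 channels. It gave 35.2 and 43.0 units in the transgenic channels and 45.1 and 39.5 units in the control channels of arrays 1 and 2, and it does not check the labels, since the part of the gene in the transgene is not given. The thymocyte markers Cd8a, Dntt and Rag1 were well above background in 4 of 4 channels. In the transgenic channels 34.1% and 28.5% of transcript spots were well above background, against 29.0% and 33.2% in the control channels, so the red dye had the higher share on both arrays.

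The family lies in 1 cluster. On RefSeq's GRCm38.p6 the genes follow each other on chromosome 6 in the order Gimap8, Gimap9, Gimap4, Gimap6, Gimap7, Gimap1, Gimap5 and Gimap3, between 48647186 and 48770851. The probes lie on mm8, the build of the array files, between 48607426 and 48694680 of chromosome 6, a stretch of 87.3 kb. No gene annotation of mm8 was used, so the exon or UTR that a probe lies in is not given. The 250 bases before a RefSeq transcript start of each of the 4 measured genes follow, because these are the cluster genes whose transcripts could be read, and they did not all read in 1 direction. They are RefSeq sequence on GRCm38.p6, at chr6:48738797-48739046 (plus strand) for Gimap1, chr6:48745947-48746196 (plus strand) for Gimap5, chr6:48708245-48708494 (minus strand) for Gimap6 and chr6:48675885-48676134 (plus strand) for Gimap9. The last 14 bases of the Gimap9 window lie inside the outer bounds that RefSeq gives the gene, and those of the other 3 end at the bound. Capitals mark matches to 1 of 6 motifs searched on both strands: RUNX (TGTGGT), ETS (CAGGAAG), FOXO (GTAAACA), TCF1 (CTTTGAA), E protein (CAGCTG) and the palindromic element of the glucocorticoid receptor, with free letters at its variable positions.
Gimap1: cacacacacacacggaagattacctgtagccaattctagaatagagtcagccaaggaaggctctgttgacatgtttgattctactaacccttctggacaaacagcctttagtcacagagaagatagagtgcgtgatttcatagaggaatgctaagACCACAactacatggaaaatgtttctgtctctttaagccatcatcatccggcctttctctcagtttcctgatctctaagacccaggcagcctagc
Gimap5: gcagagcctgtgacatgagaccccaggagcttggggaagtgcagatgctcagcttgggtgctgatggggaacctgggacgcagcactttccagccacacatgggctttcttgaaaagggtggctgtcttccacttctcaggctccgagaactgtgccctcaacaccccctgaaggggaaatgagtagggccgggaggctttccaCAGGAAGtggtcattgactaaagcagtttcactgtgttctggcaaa
Gimap6: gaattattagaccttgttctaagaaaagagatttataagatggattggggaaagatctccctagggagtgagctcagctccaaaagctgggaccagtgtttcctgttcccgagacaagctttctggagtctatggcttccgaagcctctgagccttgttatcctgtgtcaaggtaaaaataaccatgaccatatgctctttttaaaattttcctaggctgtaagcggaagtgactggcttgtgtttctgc
Gimap9: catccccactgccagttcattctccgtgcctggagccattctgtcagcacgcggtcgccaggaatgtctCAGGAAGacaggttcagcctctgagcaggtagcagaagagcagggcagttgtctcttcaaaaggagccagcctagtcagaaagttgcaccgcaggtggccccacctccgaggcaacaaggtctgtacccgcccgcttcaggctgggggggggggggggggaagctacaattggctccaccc

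The Gimap1 window held a RUNX match, on the minus strand and 95 bases before its transcript start, and RUNX letters occurred in 14% of 32851 promoter windows of the same length. The Gimap5 and Gimap9 windows each held an ETS match, 46 and 181 bases before their transcript starts, against 10.8% of all windows. The Gimap6 window held none of the 6. Over the 9 windows of the family, of which Gimap8 has 2, RUNX letters were in 3 (Gimap1, Gimap4 and Gimap7), ETS letters in 3 (Gimap3, Gimap5 and Gimap9) and FOXO letters in 1 (Gimap3, against 3.17% of all windows). TCF1, E protein and glucocorticoid receptor letters were in 0, against 4.46%, 13% and 0.387% of all windows. A match is a run of letters, and no binding was measured.

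Gimap1, which mice need for mature T and B cells to persist, was measured by 1 probe (A_51_P507509, transcript NM_008376, mm8 chromosome 6, 48672996 to 48673055). Its mean spot signal was 374 and 206 scanner units in the transgenic channels of arrays 1 and 2, against 309.9 and 380.1 units in the control channels. The red channel was the brighter one on both arrays, whichever genotype it held, so the spot signals of the genotypes overlapped. After correction of the dye balance, the log2 ratio of transgenic over control was -0.35 on array 1 and -0.11 on array 2, with a mean of -0.23 ± 0.17 (SD, n = 2 arrays). Gimap1 thus read lower in the transgenic pool on both arrays, and by more than 1.2-fold on array 1 alone.

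Gimap9, a neighbour in the same cluster, gave nearly the same picture with its 1 probe (A_51_P377948, NM_174960, mm8 chromosome 6, 48607426 to 48607485). The signal was 221 and 138 units in the transgenic channels and 197 and 243 units in the control channels. The log2 ratio was -0.32 on array 1 and -0.15 on array 2, a mean of -0.24 ± 0.12 (SD, n = 2 arrays). The mean ratio of Gimap1 lay above 3.85% of all measured genes and that of Gimap9 above 3.45%.

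Gimap6, whose protein binds the autophagy protein GABARAPL2, had 1 probe (A_51_P407227, NM_153175, mm8 chromosome 6, 48631385 to 48631444). Its signal was 239.9 and 138 units in the transgenic channels, against 159 and 201 units in the control channels. The log2 ratio was 0.079 and 0.090 on the 2 arrays, a mean of 0.085 ± 0.0079 (SD, n = 2 arrays). This small ratio above 0 was alike on both arrays and lay above 76.4% of all measured genes, well inside the bulk of the array.

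Gimap5, which keeps quiescent peripheral T cells alive in mice and rats, had 2 measured probes, and they read in opposite directions. The brighter one (A_51_P176365, NM_175035, mm8 chromosome 6, 48683088 to 48683147) gave 107 and 79.3 units in the transgenic channels, against 96.1 and 117 units in the control channels. Its log2 ratio was -0.12 and -0.11, a mean of -0.11 ± 0.0095 (SD, n = 2 arrays). The other (A_52_P102931, mm8 chromosome 6, 48676977 to 48677036) was designed on AK087160, a cDNA clone from neonatal lung that the array design assigns to Gimap5.

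The AK087160 probe gave 112 and 79.8 units in the transgenic channels, against 70.4 and 78.5 units in the control channels. Among the 5 measured probes it was the 1 for which the green transgenic channel of array 2 was no dimmer than the red control channel beside it. Its log2 ratio was 0.37 and 0.28, a mean of 0.33 ± 0.065 (SD, n = 2 arrays), or 1.25-fold higher in the transgenic pool. It lay above 98.3% of all measured genes. In the scanner software's own ratios it read 0.87 and 0.78, with errors from the software's model of 0.25 and 0.24 on the log2 scale, while the NM_175035 probe read -0.29 and -0.21 with errors of 0.22 and 0.22.

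Both Gimap5 probes match the same strand, and on mm8 the AK087160 probe begins 6111 bases before the NM_175035 probe and 3981 bases after the Gimap1 probe. RefSeq gives Gimap5 a length of 8004 bases on GRCm38.p6. The files list no RefSeq transcript for AK087160, so its link to Gimap5 rests on the array design. The 2 probes differed by 0.44 on the log2 scale. Of 2275 named genes with 2 or more measured probes, 38 (1.67%) had a gap at least as large between their highest and lowest probe, and the median gap was 0.086. Probes of opposite sign as such were common, in 37.8% of these genes.

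**Figure D1:**
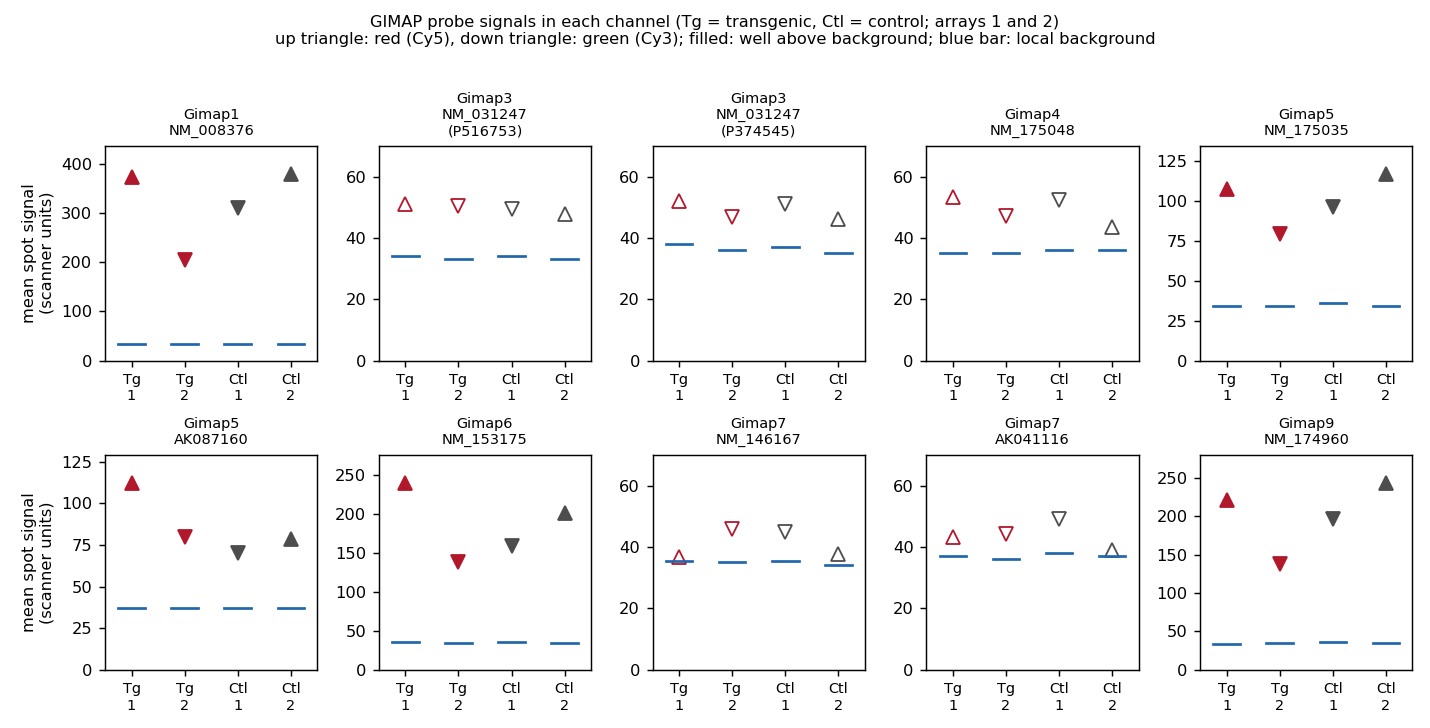
Mean spot signal in scanner units for the 10 GIMAP probes, 1 panel each with its own vertical scale, in the transgenic (Tg) and control (Ctl) channels of arrays 1 and 2. Up triangles are red, down triangles green, filled symbols are well above background and blue bars are the local background. The 5 filled panels (Gimap1, both Gimap5 probes, Gimap6 and Gimap9) stand clear of the bars in 4 of 4 channels, and in the AK087160 panel the control channels, at 70.4 and 78.5 units, lie below both transgenic ones.

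The other 5 probes were well above background in 0 of 4 channels, so their ratios are not measurements of a difference. Gimap3, the closest relative of Gimap5 and a mitochondrial protein, had 2 probes that overlap by 50 bases. The first (A_51_P516753) gave 51.2 and 50.3 units in the transgenic channels against 49.3 and 47.9 units in the control channels. The second (A_52_P374545) gave 51.9 and 46.9 units against 51.2 and 46.2 units, and the local backgrounds of both were 33 to 38 units. At the first probe both transgenic signals were slightly above both control signals, and at the second the genotypes overlapped. The mean log2 ratios were 0.079 ± 0.0067 and 0.0015 ± 0.084 (SD, n = 2 arrays), from probes not well above background in any channel.

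Gimap4, which hastens the death of mouse T cells once it has begun, had 1 probe (A_52_P205001). It gave 53.3 and 47.1 units in the transgenic channels, against 52.5 and 43.6 units in the control channels. Gimap7, whose human protein is an active GTPase when it pairs with itself, had 2 probes. The NM_146167 probe gave 36.8 and 45.9 units in the transgenic channels against 45.0 and 37.6 units in the control channels, and the AK041116 probe 43.2 and 44.1 units against 49.2 and 39.0 units. At both Gimap7 probes the green channels were the brighter ones on either array, so these signals followed the dye. Transcripts of Gimap3, Gimap4 and Gimap7 were thus not measurable at this signal, which does not show that they were absent.

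A gene was called higher or lower where its ratio was at least 1.2-fold, 0.263 on the log2 scale, in the same direction on each array, with the brightest measured probe standing for the gene. Over all 9397 measured genes 1.48% were called higher (139 genes) and 1.01% lower (95 genes). With the dye in place of the genotype, red over green, the same rule called 0.202% higher and 0.266% lower. Of the 4 measured GIMAP genes, 0 were called higher and 0 lower. At the level of probes, 1 of the 5 GIMAP probes, the AK087160 probe of Gimap5, was called higher, against 1.41% of 12235 measured probes, and 0 were called lower, against 0.932%. It was singled out after its value was seen.

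The median log2 ratio of the 4 genes was -0.17, with -0.22 on array 1 and -0.11 on array 2, and the 4 genes ran from -0.24 (Gimap9) to 0.085 (Gimap6). Over all measured genes the median was -0.0023. On both arrays 3 of the 4 were below 0 (Gimap1, Gimap5 and Gimap9), as were 29.1% of all genes, and 1 was above 0 (Gimap6), as were 28.3%. With the AK087160 probe included, by the median of the probes of a gene, Gimap5 read 0.11 and the median of the 4 genes was -0.072.

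**Figure D2:**
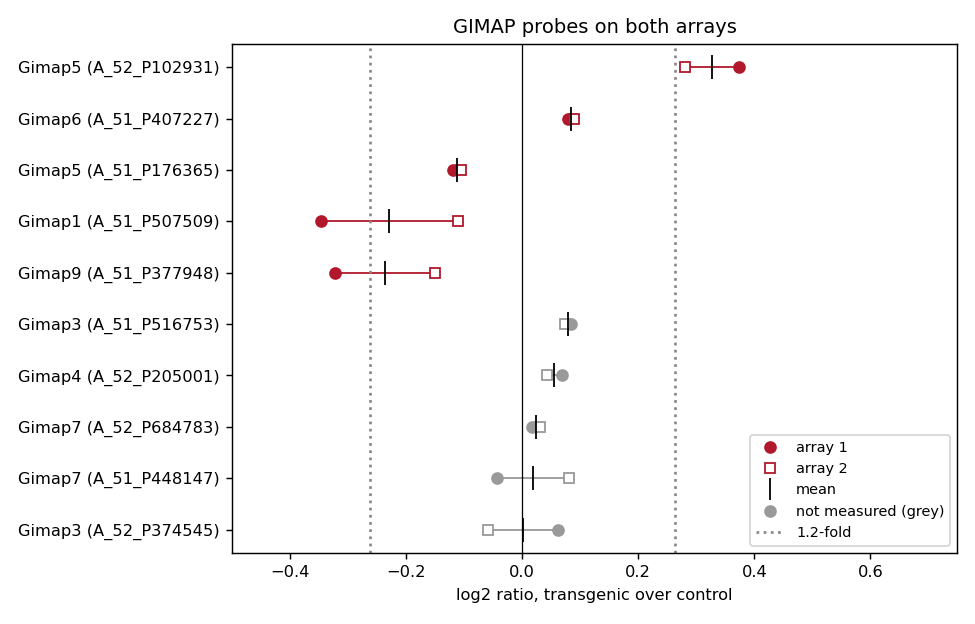
Log2 ratio of transgenic over control for each GIMAP probe on array 1 (circle) and array 2 (square), with the mean as a bar and 1.2-fold as dotted lines; grey probes were not well above background. The Gimap5 probe A_52_P102931 lies beyond 1.2-fold on both arrays (0.37 and 0.28), and Gimap1 and Gimap9 on array 1 alone (-0.35 and -0.32).

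**Figure D3:**
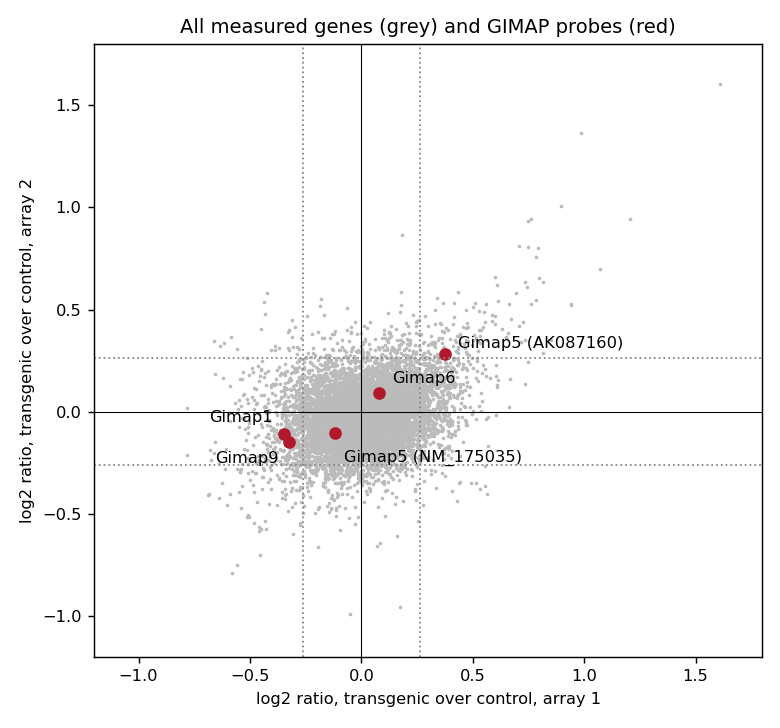
Log2 ratio of transgenic over control on array 1 (horizontal) and array 2 (vertical) for 9397 measured genes in grey and the 5 measured GIMAP probes in red, with 1.2-fold as dotted lines. The AK087160 probe lies in the upper right corner field, and the NM_175035 probe of Gimap5 lies left of and below 0 with Gimap1 and Gimap9.

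The ratios of single arrays depended on how the dyes were balanced. Loess removes a dye difference that changes with signal, and median centring does not. With median centring, 4 of the 5 measured probes had opposite signs on the 2 arrays. Gimap1 then read 0.21 and -0.77, Gimap9 0.14 and -0.71, Gimap6 0.53 and -0.44 and the NM_175035 probe of Gimap5 0.17 and -0.46. The AK087160 probe read 0.61 and 0.026, both above 0, and lost its call. The means over both arrays moved less, with Gimap1 at -0.28, Gimap9 at -0.28, Gimap6 at 0.044, the NM_175035 probe at -0.14 and the AK087160 probe at 0.32. Under that centring the count over all genes was 13 higher and 3 lower. With loess, 0 of the 5 probes changed sign between the arrays.

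The offset of 50 units, added to both channels to steady dim spots, shrinks the ratios of dim probes most. With an offset of 0 the AK087160 probe reached 0.71, with 0.78 on array 1 and 0.64 on array 2. The NM_175035 probe then read -0.21, Gimap1 -0.27, Gimap9 -0.31 and Gimap6 0.12. The gap between the Gimap5 probes was wider without the offset, and the order of the others was kept.

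**Figure D4:**
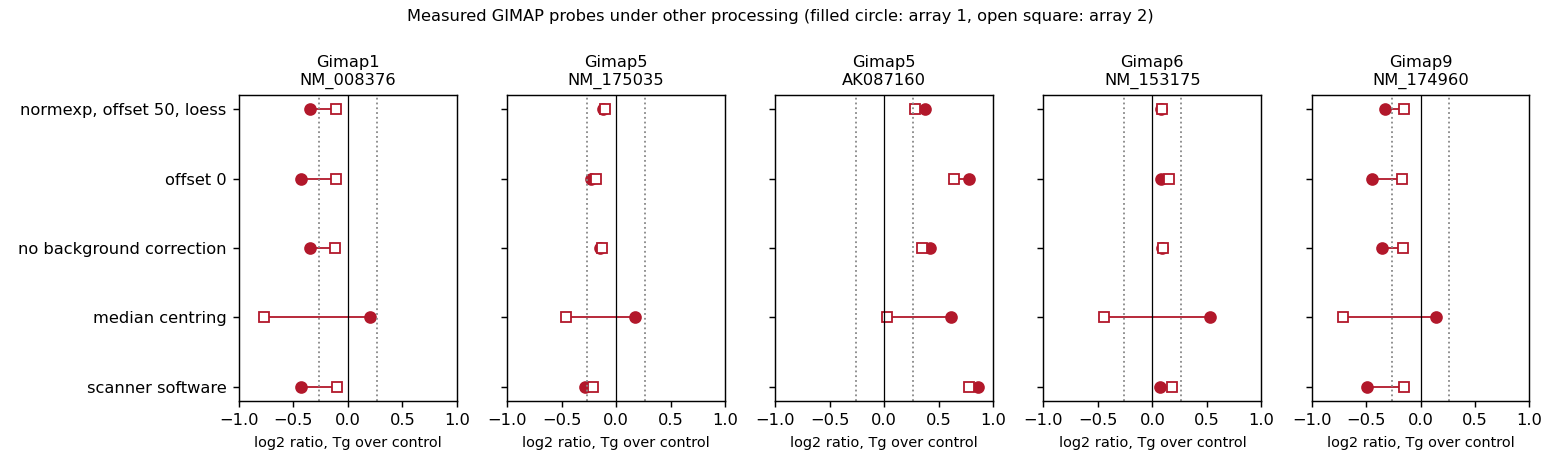
Log2 ratio of transgenic over control on array 1 (filled circle) and array 2 (open square) for the 5 measured GIMAP probes, 1 panel each, under 5 ways of processing, with 1.2-fold as dotted lines. The AK087160 probe is beyond 1.2-fold on both arrays except with median centring (0.61 and 0.026), and under it the 2 arrays lie further apart than with loess for all 5 probes.

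Genes beside the cluster were read in the same way, taking the 3 nearest named genes on each side. Before it, Rarres2, which encodes the chemoattractant chemerin, had 2 measured probes at 0.25 ± 0.095 and 0.033 ± 0.043 (SD, n = 2 arrays), about 108 kb from the Gimap9 probe. The probes of Repin1 and Zfp775 were not measured. After it, Tmem176b, a membrane protein gene of myeloid cells, was measured at 0.060 ± 0.0022, 69.5 kb from the last Gimap3 probe. The probes of Tmem176a and of Aoc1, the diamine oxidase gene, were not measured. None of the measured flanking probes was called, and no ratio of 1 sign ran along the chromosome through the cluster.

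**Figure D5:**
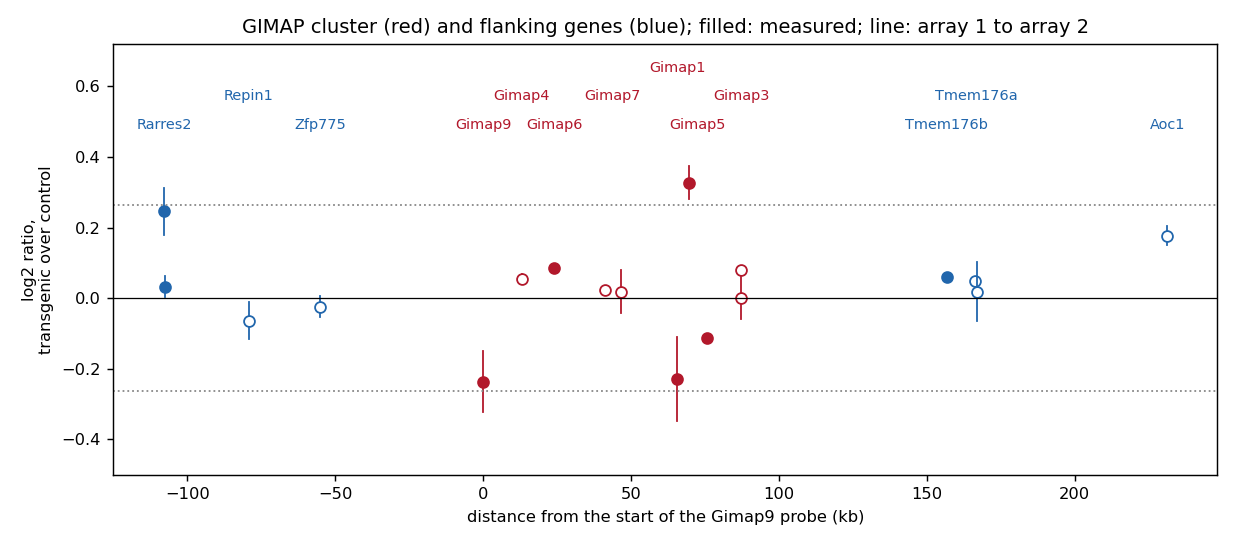
Log2 ratio of transgenic over control against distance in kb from the start of the Gimap9 probe, for GIMAP probes (red) and flanking genes (blue); points are means, lines join array 1 and array 2, filled points were measured. Within the cluster the measured means run from -0.24 (Gimap9) to 0.33 (the AK087160 probe of Gimap5), with Tmem176b at 0.060 on its far side.

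Genes whose products bind GIMAP proteins or act beside them in cell survival and autophagy were measured for 9 of 11 listed. Their median log2 ratio was -0.083, and 0 of 9 were called in either direction. Over all measured genes 1.48% were called higher and 1.01% lower, so a count of 0 says little for so few genes. The autophagy receptor gene Sqstm1 was at -0.024 ± 0.082, the autophagosome gene Map1lc3b at 0.018 ± 0.24, Gabarapl2, the partner of Gimap6, at -0.16 ± 0.25 and the survival gene Bcl2l1 at -0.13 ± 0.13 (SD, n = 2 arrays). These spreads were larger than the ratios or close to them, with 5 of the 9 of opposite sign on the 2 arrays.

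Interferon-inducible GTPases, another family of immune GTPases, were measured for 10 of 15 listed, with a median of 0.050 and 0 called in either direction. With 1.48% called higher and 1.01% lower over all measured genes, that count too says little. Igtp was at 0.030 ± 0.018, Tgtp1 at 0.044 ± 0.062, Irgm2 at 0.070 ± 0.25 and Irgm1 at 0.18 ± 0.0085 (SD, n = 2 arrays).

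Markers of the thymic cells that carry GIMAP transcripts were set beside the family. Of the mature T cell list 15 of 16 genes were measured, with a median of -0.041, 3 called higher and 1 lower. On both arrays 6 of the 15 were above 0 and 8 below 0. The list also holds general T cell genes, so its median is not a level of mature cells alone. The called genes were Ms4a4b at 0.67 ± 0.17, the homing receptor gene Ccr7 at 0.45 ± 0.15, the integrin gene Itgb7 at 0.38 ± 0.062 and Klf2 at -0.54 ± 0.20 (SD, n = 2 arrays). Ms4a4b had 4 measured probes, whose means ran from 0.25 to 0.67. A second Klf2 probe read 0.59, so that gene too had probes of opposite sign. Of the immature thymocyte list 15 of 16 genes were measured, with a median of -0.31, 0 called higher and 6 lower, the lowest being Ccr9 at -0.53 ± 0.10. This list also holds genes that mature T cells express, so its median and calls do not give a level of immature cells alone. Over all measured genes 1.48% were called higher and 1.01% lower. Both lists were chosen with earlier results of these data known, so their counts are not an independent result. Among the 6 immature thymocyte genes called lower, Arpp21 was at -0.37 ± 0.10 on its brightest probe and at 0.45 on another.

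The summed signal above local background of the mature T cell list was 5559 to 12368 units in the transgenic channels and 8371 to 12900 units in the control channels. That of the immature thymocyte list was 16495 to 40185 units in the transgenic channels and 24261 to 46212 units in the control channels. The ranges overlapped, since each genotype was read once in each dye, so the overlap does not compare the genotypes. Within a dye, the transgenic sum of the mature list was 12368 units in red and 5559 in green, against 12900 and 8371 for control. That of the immature list was 40185 and 16495 units, against 46212 and 24261. Each such comparison sets 1 array against the other, without correction for array brightness, and bright genes weigh most in a sum. S1pr1 and Rag2 were well above background in 0 of 4 channels.

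For other cell types that express GIMAP genes, most of the listed genes were not measured. Of the B cell list 1 of 10 genes was measured, Cd79b at 0.13 ± 0.035, and the summed signal was 86.9 to 175 units in the transgenic channels and 98.8 to 134 units in the control channels. The B cell genes Cd79a, Ms4a1 and Pax5 were well above background in 0 of 4 channels. Of the natural killer list 4 of 11 were measured, with a median of 0.080 and a summed signal of 273 to 499.5 units in the transgenic channels and 310.4 to 429 units in the control channels. Gzma was at -0.011 ± 0.012, Il2rb at 0.22 ± 0.076, Nkg7 at 0.094 ± 0.0075 and Klrd1 at 0.066 ± 0.042 (SD, n = 2 arrays), and Ncr1 was well above background in 0 channels. Of the endothelial list 2 of 11 were measured, Pecam1 at 0.043 ± 0.11 and Egfl7 at -0.011 ± 0.0040, with a summed signal of 66.2 to 84.9 units in the transgenic channels and 69.3 to 88.9 units in the control channels, and Cdh5 and Kdr were well above background in 0 channels. None of these 3 lists had a called gene, against 1.48% called higher and 1.01% lower over all measured genes. For so few genes that says little, and the part of any cell type in the GIMAP ratios was not tested.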

How the data were processed

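Thymus RNA pooled by genotype was read on 2 two-colour Agilent arrays with exchanged dyes, labelled from 500 ng of RNA, per the labels' protocols. That both arrays hold the same pool of each genotype was assumed. The deposited scanner files give mean and background intensity per spot and channel on a linear scale, without background correction, and per the file headers the software was Feature Extraction 9.5.1.1. The deposited log10 ratio, per the file headers, is that of the red to the green processed signal, for which the software removed a spatial trend, balanced the dyes by lowess and replaced dim signals with surrogates. The log10 values of the deposited series table equal the red-to-green ratios of those processed signals to within 5e-10 and were not turned for the dyes or centred (medians -0.113 and -0.101). The log ratios that the software itself lists differ from that table at 25348 of 43790 spots on array 1 and at 25641 on array 2. The software's error of each log ratio comes from its model of 1 array, per the file headers.

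Mean signals were corrected with normexp (offset 50) and loess within each array, with control and outlier spots at weight 0 (limma 3.58.1, R 4.3.3). Outlier spots were left out (46 and 37), array 2 was turned, and ratios read transgenic over control on the log2 scale. Genes were named through RefSeq, by accession for 23396 of 41174 probes. The 8145 probes without a RefSeq name kept that of the array design and, where measured, count among the measured genes. The brightest measured probe stood for a gene. The precision is limited by the 2 arrays. The steps were run on simulated dye-swapped arrays, whose dye difference was a straight line in log signal, of the kind that loess removes. That run therefore does not check calls near 1.2-fold on the real arrays.

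All members and their probes are named. Of each list up to 4 genes are named, called ones first and then the brightest measured, and of the immature thymocyte list the lowest and a gene with probes of opposite sign. The members, lists and motifs were chosen with earlier results of these data known. No genes are named for a like pattern, since 2 arrays, taken as 1 pair of pools, give none to match. Alternatives changed the offset, background correction, normalization, source of the ratio, filter, probe rule and arrays.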

Additional observations from a re-analysis of the deposited data

How the results depend on the processing

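The median of the 4 measured GIMAP genes, -0.17, was -0.26 with the scanner software's log ratios and with the series table, -0.072 with the median over the probes of a gene and 0.024 with no filter on dim probes, where 3 dim genes (Gimap3, Gimap4 and Gimap7) join. It was -0.22 and -0.11 with 1 array left out at a time. The count of GIMAP genes called lower was 0, and 0 to 2 with 1 array left out, the 2 being Gimap1 and Gimap9 on array 1 alone. The count called higher was 0 under all 10 alternatives. Over all genes, 139 higher and 95 lower became 511 and 351 with an offset of 0, 593 and 416 with the software's ratios and with the series table, and 13 and 3 with median centring. With 1 array left out, which drops the need for 2 arrays to read alike, the counts were 347 to 768 higher and 410 to 594 lower. For the other moves the cause was not tested. Gimap1 and Gimap9 were below 0 and Gimap6 above 0 in 10 of 10 alternatives. Each of these genes has 1 measured probe, so the settings for the filter and for the probes of a gene repeated its main value. The software's ratios and the series table gave the same value, and each array left out restated a sign already given for the other array. Gimap5 turned to 0.11 with the median over its probes. The AK087160 probe, for which alternatives were added after seeing the data, kept its call in 8 of 9 and lost it with median centring. Several of these settings add nothing new for it. Both filter settings left its ratio at 0.33, and the software's ratios and the series table gave the same 0.82. With 1 array left out the call needs only the array kept, and the probe was past 1.2-fold on each array. Each array sets both pools against each other directly, so every ratio is already paired within its array. No further pairing was possible because the arrays form 1 group. Signal over background limits the family, as 5 of 10 probes were well above background in 0 of 4 channels.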
